A study of Monodelphis domestica with 2 samples.

Results

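Parvalbumin (Pvalb) interneurons were described in V1, the primary visual area of the cortex, of a marsupial, the opossum Monodelphis domestica. Members were the nuclei that carry the subclass label Pvalb in the deposited annotation. There were 2146 of them, among 4347 labelled GABAergic nuclei and 32764 labelled nuclei in all. V1 of 2 adult males, 1.5 and 2 years old and here called animal 1 and animal 2, was profiled by droplet-based single-nucleus RNA-seq. Both hemispheres of an animal were pooled, and each animal gave 2 libraries (1A and 1B, 2A and 2B). The labels name no treatment, and the animals were handled in parallel by different experimenters, so animal, age and handling cannot be told apart. Animal 1 gave 1157 Pvalb nuclei and animal 2 gave 989. The comparison group was the 2201 GABAergic nuclei of the other 4 subclasses, which were 1020 Sst, 506 Vip, 370 Lamp5 and 305 Frem1 nuclei.

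Interneurons of this kind arise in the medial ganglionic eminence (MGE) of the embryo, as the Sst interneurons do, and they depend on the transcription factors LHX6 and SOX6. Most are basket cells that contact the soma of their targets, and a smaller group, the chandelier cells, contacts the axon initial segment. They fire brief spikes at high rates, which rests on fast Kv3 potassium channels, on fast transmitter release and on a high energy supply. In many mammals a lattice of proteoglycans and link proteins, the perineuronal net, surrounds them in the adult cortex.

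Counts were unique molecular identifiers (UMIs), and levels are CPM, the UMIs summed over the nuclei of a group in an animal and scaled to a common total. In each pair of values below, animal 1 stands before animal 2. Library totals ran from 55625042 to 69706055 UMIs over 7749 to 10751 barcodes. Pvalb nuclei had a median of 7195 and 6987 UMIs, and the other GABAergic nuclei had 6041 and 4993. The Pvalb sums held 8800145 and 7680671 UMIs, and those of the other group 7174106 and 6132020. Any 2 libraries shared 16 to 30 cell barcodes, and at most 1 barcode was a Pvalb nucleus in both. Scrublet, the doublet caller of the study, had marked 55 of the Pvalb nuclei, and these were kept. The subclass labels came from clusters of these same counts. An adjusted p below, from edgeR over 4 sums, therefore says that a difference given those labels exceeded the spread between the 2 animals, and it is no independent evidence for the label. GAD1, SST, VIP, LAMP5 and FREM1 were among the genes used in labelling, and their values are a description.

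The label was checked against its markers. LHX6 was at 185 and 179.8 CPM against 163 and 137 CPM in the other GABAergic nuclei, and almost all of the latter came from Sst nuclei, at 324 and 316 CPM. Across Vip, Lamp5 and Frem1 nuclei LHX6 lay at 1.55 to 7.90 CPM. The difference from the pooled group did not pass the test (0.32 ± 0.10 on the log2 scale, adjusted p = 0.0619, or 0.000553 with the animal as a block), while that from the equal-weight mean of the 4 subclasses was 4.04 ± 0.15 (adjusted p = 2.51e-10). Here and below, the equal-weight mean averages log2 levels and not CPM. Subclasses with hardly any UMIs of a gene pull it down, so a level above it can lie below the mean CPM. GAD1, which makes GABA, was at 529 and 578 CPM against 393 and 404 CPM, and HAPLN4, a link protein of the perineuronal net, at 52.95 and 50.5 CPM against 2.09 and 2.77 CPM. GAD1 and HAPLN4 were higher in Pvalb nuclei in both animals, and by library HAPLN4 lay at 53.7, 52.2, 51.3 and 49.9 CPM in Pvalb nuclei and at 2.50, 1.68, 2.42 and 3.09 CPM in the other nuclei, with no overlap. PVALB itself was not analysed here, and 19224 of the 30800 genes have no symbol of their own and are not named.

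RNA of other cell classes was measured beside these genes. Of 13 tested glial and vascular genes, 4 were lower in Pvalb nuclei than in the other GABAergic nuclei (SLC1A2, SLC1A3 and MOG among them), and of 6 tested glutamatergic genes 1 was lower (SV2B). With the animal as a block these were 4 lower and 1 higher, and 2 lower. Over all 15540 genes tested, 1762 (11.3%) were lower, and 2958 were lower with the block. With each nucleus thinned to 3000 UMIs, 1 of 9 tested glial and vascular genes was called, and 2407 of 12329 over all genes. The glutamatergic genes NEUROD2, NEUROD6 and SLC17A6 lay between 0.909 and 1.69 CPM in Pvalb nuclei. The highest glial gene was MBP, a myelin protein, at 103 and 112 CPM against 129 and 96.1 CPM, and it was not called.

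**Figure D1:**
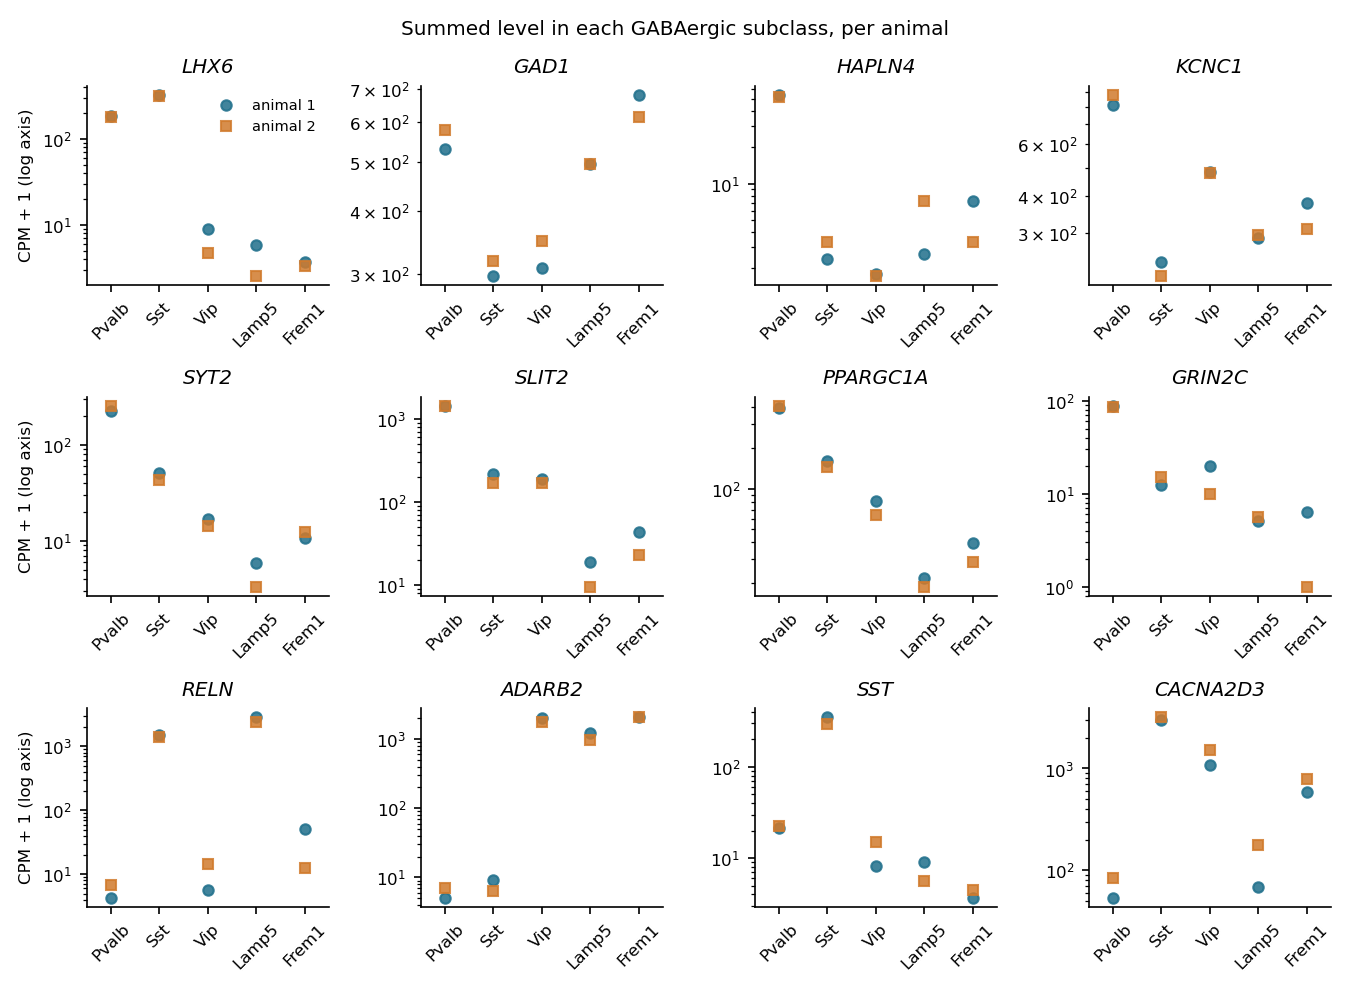
Summed level of 12 genes in the 5 GABAergic subclasses, in CPM plus 1 on a log axis, with circles for animal 1 and squares for animal 2. HAPLN4, KCNC1, SYT2, SLIT2, PPARGC1A and GRIN2C were highest in Pvalb nuclei of both animals, LHX6 was high in Pvalb and Sst nuclei, and ADARB2 was low in both.

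The comparison of Pvalb with the other GABAergic nuclei asks which genes set this subclass apart within the inhibitory neurons. Of 15540 genes tested, 3361 differed (21.6%), 1599 higher (10.3%) and 1762 lower (11.3%) in Pvalb nuclei, each in the same direction in both animals. With the animal as a block, the same fit called 5850 genes, all 3361 included, with 2892 higher and 2958 lower. When labels for each part of the genes were predicted from the other genes and the other animal, 3380 genes were called, and 3302 of them were among the 3361. The other group weighs Sst nuclei most. Against the equal-weight mean of the 4 subclasses, 3627 of 11100 genes were called, 1962 higher and 1665 lower, and 25 called in both fits changed direction. Counts of the gene lists below stand beside these counts over all genes.

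The 12 named genes with the largest increase included secreted and matrix proteins. SFRP1, a secreted Wnt antagonist, was at 141 and 107 CPM against 4.18 and 1.63 CPM (5.40 ± 0.28 on the log2 scale). COL19A1, a collagen, was at 399.5 and 314 CPM against 21.6 and 13.4 CPM (4.38 ± 0.20), and CRTAC1, a matrix protein, at 188 and 283 CPM against 17.4 and 19.4 CPM (3.72 ± 0.23). PLAT, which encodes tissue plasminogen activator, was at 65.8 and 73.4 CPM against 5.85 and 5.38 CPM (3.67 ± 0.17). The motor protein gene MYO5B stood at 805 and 758 CPM against 35.3 and 25.8 CPM (4.71 ± 0.14) and the Rab GTPase activator TBC1D1 at 268 and 248 CPM against 23.8 and 17.4 CPM (3.67 ± 0.14). LRRC38, an accessory subunit of large-conductance potassium channels, was at 66.1 and 70.96 CPM against 5.16 and 2.94 CPM (4.10 ± 0.21). GBA3, a cytosolic glucosidase, was at 193 and 115 CPM against 8.36 and 4.57 CPM (4.58 ± 0.30), and the phospholipase PLA2G4E at 75.00 and 64.97 CPM against 6.83 and 4.40 CPM (3.66 ± 0.19). APCDD1L, HAPLN4 and HHATL complete the list, with log2 fold changes of 4.77 ± 0.40, 4.45 ± 0.20 and 3.74 ± 0.28. All 12 had adjusted p-values of 7.35e-05 or less and were also higher in Pvalb nuclei than in each of the 4 other subclasses taken singly.

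The 12 named genes with the largest decrease were mainly genes of the other subclasses. RELN, the secreted glycoprotein reelin, was at 3.30 and 5.73 CPM against 1261 and 1111 CPM (-8.01 ± 0.20), and it was high in Sst (1528 and 1404 CPM) and Lamp5 nuclei (2877 and 2399 CPM). ADARB2 was at 4.09 and 5.99 CPM against 888 and 878 CPM (-7.42 ± 0.17), and it was also low in Sst nuclei (8.17 and 5.33 CPM). KIT, a receptor tyrosine kinase, was at 2.05 and 1.43 CPM against 196 and 230.3 CPM, and EGFR, another, at 3.98 and 6.25 CPM against 180.4 and 242 CPM. The matrix genes SMOC2 and COL8A1 were at 1.14 and 1.56 CPM against 159 and 178 CPM and 2.16 and 1.69 CPM against 178 and 102 CPM. The transcription factors PROX1 and NR2F2 fell below 1 CPM in Pvalb nuclei of both animals, as did the calcium buffer CALB2. VIP was at 1.02 and 1.43 CPM against 48.9 and 55.1 CPM and the neuromedin B receptor NMBR at 1.02 and 0.26 CPM against 40.4 and 35.6 CPM. For QRFPR, a peptide receptor, 2 UMIs in Pvalb nuclei stood against 585 in the others, a ratio per UMI of 362 (95% exact interval 99.8 to 2999, counting error only). Of these, SMOC2, NR2F2, NMBR and EGFR were lower than in each of the 4 subclasses taken singly.

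**Figure D2:**
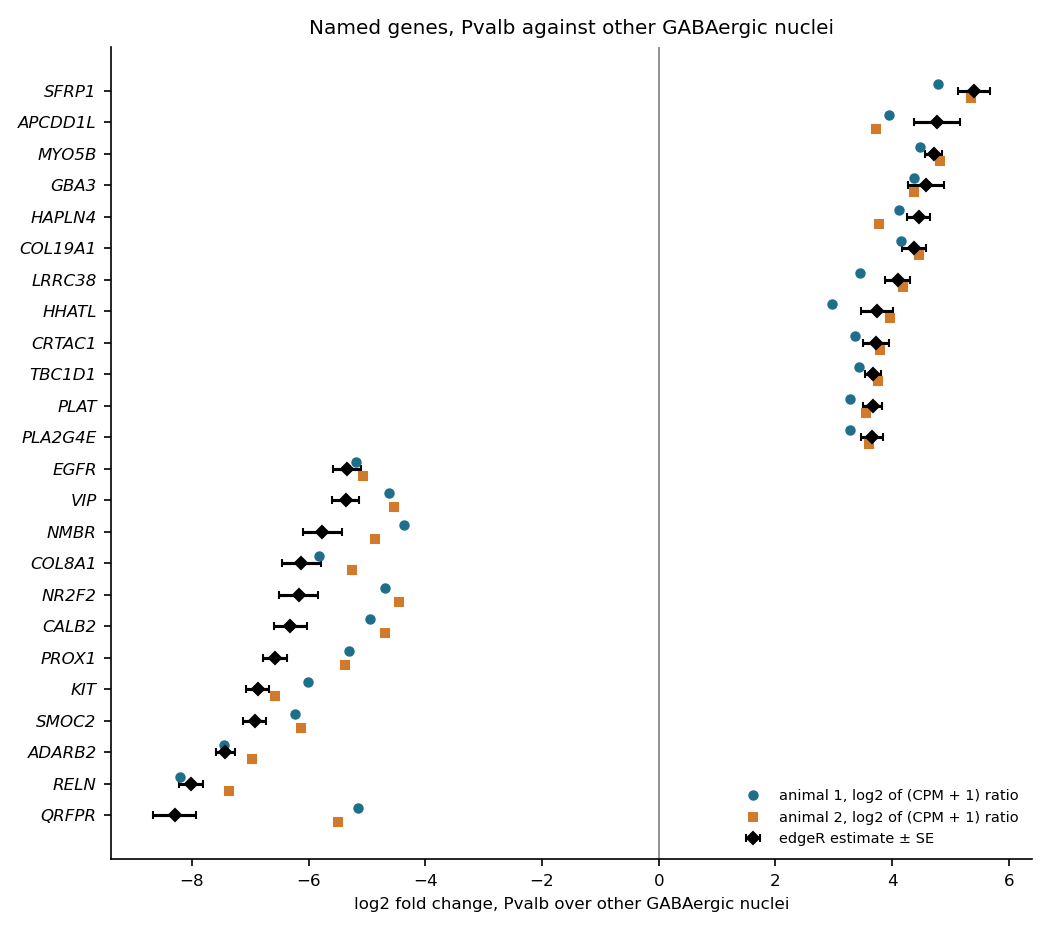
Log2 fold change of the 24 named genes, Pvalb over other GABAergic nuclei, with diamonds for the edgeR estimate and its SE and circles and squares for each animal's own ratio after 1 CPM was added. SFRP1 stood highest at 5.40, and in all 24 genes both animals lay on the same side of 0.

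Potassium channel genes went both ways. Of 29 tested, 11 were higher and 7 lower in Pvalb nuclei (13 and 11 with the block). KCNC1, which encodes the Kv3.1 channel, was at 815 and 878 CPM against 313 and 303 CPM (1.50 ± 0.10, adjusted p = 1.63e-05), and Pvalb ranked highest of the 18 labelled subclasses of the tissue. KCNAB1, a subunit that modifies Kv1 channels, was at 1247 and 929 CPM against 209 and 209 CPM (2.42 ± 0.13), and KCNAB2 and KCNAB3 were higher by 0.73 ± 0.09 and 0.98 ± 0.13. The Kv1.1 gene KCNA1 was at 76.7 and 91.7 CPM against 40.4 and 35.9 CPM, while KCNA2 did not pass, at 9.55 and 9.50 CPM against 10.5 and 7.01 CPM. The Kv1.3 gene KCNA3 was lower, at 12.6 and 11.6 CPM against 26.9 and 23.2 CPM (-1.01 ± 0.17). KCNT1, a sodium-activated potassium channel, was at 682 and 614 CPM against 136 and 106 CPM (2.46 ± 0.12), and its paralog KCNT2 went the other way, at 190.2 and 173 CPM against 1359 and 1599 CPM (-2.99 ± 0.12). KCNT2 was lower still in Sst nuclei (78.4 and 84.5 CPM). KCNQ5, an M-current channel, was at 40.1 and 43.2 CPM against 201 and 275 CPM and was lower than in each of the 4 subclasses. The Kv4 channels KCND2 and KCND3 were lower by 0.38 ± 0.08 and 0.39 ± 0.08 on the log2 scale, although neither was called against the equal-weight mean (KCND2 0.13 ± 0.10, KCND3 -0.20 ± 0.10), and KCNC4 was at 15.1 and 6.77 CPM against 28.9 and 27.9 CPM. KCNC1, KCNA1, KCNAB1, KCNAB2, KCNAB3, KCNT1 and KCNK2 were higher than in each of the 4 subclasses.

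Among 13 sodium and HCN channel genes, 3 were higher and 5 lower. The pore-forming SCN1A was at 973 and 987 CPM against 622 and 579 CPM (0.75 ± 0.09) and the accessory subunit SCN4B at 28.9 and 25.4 CPM against 9.06 and 5.54 CPM (1.92 ± 0.23). Both were above each other GABAergic subclass in turn. SCN3A (175 and 164 CPM against 277 and 258 CPM) and SCN3B (6.36 and 3.39 CPM against 21.05 and 22.02 CPM) were below each of them. HCN4, a pacemaker channel, was at 3.52 and 2.86 CPM against 30.2 and 32.6 CPM (-3.25 ± 0.21).

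Calcium genes were split as well, with 5 of 15 higher and 8 lower, against 6 and 5 with the equal-weight mean. RYR1, a calcium release channel, was at 21.2 and 26.95 CPM against 2.09 and 3.10 CPM (3.26 ± 0.28), whereas RYR3 was at 176 and 163 CPM against 781 and 790.0 CPM (-2.17 ± 0.09). The plasma membrane pump ATP2B2 was at 1427 and 1438 CPM against 945 and 901 CPM. CACNA2D3, an accessory channel subunit, was at 52.5 and 82.4 CPM against 1781 and 1859 CPM (-4.71 ± 0.22), and CACNB2 at 31.8 and 33.9 CPM against 346 and 336 CPM (-3.34 ± 0.11). CACNA1A, the P/Q-type channel of fast synapses, was at 895 and 949.9 CPM against 721 and 715 CPM, and CACNA1B, the N-type channel, at 395 and 386 CPM against 1058 and 1025 CPM. CALB1, the calcium buffer calbindin, was at 56.5 and 53.1 CPM against 39.7 and 19.7 CPM (adjusted p = 0.035), and its level lay mainly in 1 type, given below.

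Among release genes SYT2 stood out. SYT2, a fast calcium sensor of release, was at 227 and 254 CPM against 29.8 and 22.99 CPM (3.22 ± 0.15, adjusted p = 3.18e-06) and was highest in Pvalb nuclei among the 18 subclasses. The general sensor SYT1 did not differ beyond the spread, at 3155 and 2896 CPM against 3137 and 2904 CPM. Complexins were opposite, with CPLX1 at 267 and 298 CPM against 213 and 221 CPM and CPLX2 at 41.6 and 35.5 CPM against 69.4 and 64.1 CPM. RAB3B was higher, at 50.7 and 50.3 CPM against 30.8 and 29.8 CPM, and RAB3C, RIMS1, STXBP6, SV2C and ERC2 were lower. STXBP6 turned round against the equal-weight mean (2.99 ± 0.20), with 1161 and 1322 CPM in Sst nuclei, and SV2C and ERC2 were not called there. In all, 3 of 15 were higher and 6 lower, against 6 higher and 6 lower with the block and 6 higher and 3 lower with the equal-weight mean.

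Glutamate receptors, by which these cells receive excitation, changed in 15 of 18 tested genes, 5 higher and 10 lower. The AMPA subunit GRIA3 was at 947 and 1060.5 CPM against 401 and 453 CPM (1.27 ± 0.11) and GRIA4 at 1533 and 1287 CPM against 903 and 801 CPM. GRIA1 and GRIA2 were lower, at 1321 and 1063 CPM against 1765 and 1569 CPM and 1253 and 1307 CPM against 1883 and 2091 CPM, and the latter subunit is the one that blocks calcium entry. GRIN2C, an NMDA receptor subunit, was at 86.6 and 83.98 CPM against 10.6 and 8.97 CPM (3.16 ± 0.14), while GRIN2A was at 179.7 and 183 CPM against 445 and 478 CPM. Among kainate receptor genes, GRIK1 was at 73.4 and 79.9 CPM against 15.3 and 10.8 CPM (2.59 ± 0.17), and GRIK2, GRIK3 and GRIK4 were lower by 0.73 ± 0.08, 1.47 ± 0.14 and 1.85 ± 0.14. Against the equal-weight mean of log2 levels, GRIK3 was higher (1.19 ± 0.14). The metabotropic receptors GRM3, GRM4 and GRM7 were also lower, GRM7 at 134 and 140.1 CPM against 595 and 723 CPM.

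Of 15 GABA and glycine receptor genes, 6 were higher and 5 lower. GABRB2 was at 1176 and 1167 CPM against 744 and 755 CPM (0.68 ± 0.08). GABRA2 and GABRA5 were lower, at 123 and 126 CPM against 222 and 228 CPM and 11.7 and 7.03 CPM against 27.5 and 36.7 CPM. For GABRG1, 3 UMIs in Pvalb nuclei stood against 169, a ratio of 69.8 (95% exact interval 23.5 to 342). The metabotropic subunit GABBR2 was at 1568 and 1579 CPM against 1025 and 1032 CPM and was above each other subclass. For synthesis and transport of GABA itself, 2 of 7 genes were called, GAD1 among them. GAD2 was at 536 and 559 CPM against 558 and 541 CPM and the vesicular transporter SLC32A1 at 43.98 and 35.2 CPM against 44.05 and 37.5 CPM.

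Perineuronal net genes were tested in 9 cases, of which 3 were higher and 1 lower (5 and 1 with the animal as a block, and 5 and 1 of 6 tested against the equal-weight mean). HAPLN4 was low in the other GABAergic subclasses, with means from 0.766 CPM in Vip to 4.27 CPM in Frem1 nuclei. TNR, the tenascin that crosslinks nets, was at 349.7 and 331 CPM against 63.8 and 56.3 CPM (2.54 ± 0.10, adjusted p = 2.05e-06), and BCAN, the proteoglycan brevican, at 22.3 and 24.2 CPM against 6.41 and 6.36 CPM (1.90 ± 0.19). These genes were above each of the 4 subclasses. HAPLN1 was lower in Pvalb nuclei, at 21.02 and 17.4 CPM against 59.8 and 57.6 CPM, and most of it lay in Lamp5 nuclei (210.0 and 181 CPM). It was higher than in Sst nuclei (6.48 and 3.04 CPM, 1.94 ± 0.26, adjusted p = 7.57e-05). ACAN, which encodes aggrecan, the usual core proteoglycan of nets, was at 1.59 and 2.47 CPM against 0.836 and 0.489 CPM. That is 14 and 19 UMIs in the Pvalb sums, and the difference was not called (adjusted p = 0.0729, or 0.0152 with the block). The glycan enzymes HAS2 and HAS3 were below 1 CPM in both animals.

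Energy genes were higher in 5 of 11 cases (9 higher and 1 lower with the block). Over all 15540 genes tested, 1599 were higher, and 2892 were higher and 2958 lower with the block. PPARGC1A, a coactivator of mitochondrial genes, was at 391 and 407 CPM against 103 and 82.8 CPM (2.15 ± 0.12, adjusted p = 7.64e-06), and its partner ESRRG at 112 and 104 CPM against 39.4 and 44.5 CPM (1.40 ± 0.12). LDHB, a lactate dehydrogenase subunit, was at 89.7 and 89.4 CPM against 45.3 and 38.6 CPM, and LDHA was at 2.73 and 3.65 CPM against 5.02 and 6.69 CPM (adjusted p = 0.123, or 0.0201 with the block). ATP1B1, a sodium pump subunit, was at 449 and 441 CPM against 313 and 298 CPM. COX4I1 and CYCS, of the respiratory chain, were at 20.2 and 23.04 CPM against 22.4 and 24.95 CPM and 29.5 and 24.9 CPM against 22.02 and 18.8 CPM. Neither passed, although CYCS was higher with the block (adjusted p = 0.00428).

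In the neuregulin and trophic list, 4 of 11 genes were higher and 1 lower (5 and 2 with the block). ERBB4, the neuregulin receptor, was at 16399 and 16629.7 CPM against 7415 and 8665 CPM (1.08 ± 0.11). It was far above Sst nuclei (1965 and 1722 CPM, 3.16 ± 0.10, adjusted p = 3.55e-10) but Vip nuclei had 17375 and 18862 CPM. NRG1, NRG2 and the neurotrophin receptor NTRK3 were higher by 0.86 ± 0.14, 0.34 ± 0.10 and 0.86 ± 0.12, of which NRG2 lost its call under 6 alternatives. NTRK2, the receptor of BDNF, was at 1644 and 1699 CPM against 1733 and 1687 CPM and was not called, but it was higher against the equal-weight mean (0.30 ± 0.07, adjusted p = 0.0031).

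Transcription factors of MGE and interneuron identity were tested in 12 cases, of which 4 were higher and 2 lower (5 and 4 with the block, and 8 and 3 against the equal-weight mean). SOX6 was at 848 and 907 CPM against 488 and 415 CPM (1.00 ± 0.10), MEF2C at 1054 and 928 CPM against 526 and 544 CPM (0.93 ± 0.09), MAF at 681 and 613 CPM against 536 and 424 CPM and ETV1 at 35.2 and 42.3 CPM against 9.20 and 9.95 CPM (2.06 ± 0.18). DLX1 and DLX2, factors of GABAergic development, were at 21.7 and 18.2 CPM against 44.05 and 38.3 CPM and 8.75 and 6.64 CPM against 15.3 and 14.4 CPM. SATB1 was at 315 and 263 CPM against 396 and 304 CPM and was not called (adjusted p = 0.254, or 0.00485 with the block), and it was higher than the equal-weight mean (2.25 ± 0.09, adjusted p = 7.99e-10). The Sst marker list gave 1 higher (CALB1) and 2 lower (SST and ELFN1) of 6 tested genes, 2 and 2 with the block, and 2 and 1 of 4 against the equal-weight mean. All 14 tested markers of interneurons from the caudal ganglionic eminence were lower, in part by construction, since VIP, LAMP5 and FREM1 define the groups compared. With the equal-weight mean 10 of the 14 were called lower.

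Receptors for modulators and peptides included 24 tested genes, of which 4 were higher and 10 lower. With the equal-weight mean 7 of 19 were higher and 5 lower, and after thinning 2 of 20 were higher and 5 lower. ADRA1A, an adrenergic receptor, was at 191 and 202 CPM against 56.7 and 47.9 CPM (1.95 ± 0.12), and OPRD1, the delta opioid receptor, at 92.3 and 89.97 CPM against 37.2 and 30.8 CPM (1.46 ± 0.12). Both were above each other GABAergic subclass. CHRM2, a muscarinic receptor, was at 13.98 and 9.76 CPM against 6.83 and 4.08 CPM, and the serotonin receptor HTR4 at 62.04 and 60.8 CPM against 38.6 and 49.1 CPM. OPRM1, the mu opioid receptor, was at 8.18 and 5.86 CPM against 45.6 and 33.8 CPM (-2.45 ± 0.21), CHRNA4, a nicotinic subunit, at 8.98 and 9.37 CPM against 99.2 and 77.3 CPM (-3.23 ± 0.16), and the oxytocin receptor OXTR at 10.1 and 7.03 CPM against 24.8 and 19.7 CPM, which turned round against the equal-weight mean (1.28 ± 0.39). Of 8 tested neuropeptide genes, 6 were lower (SST, VIP, CCK, PNOC, PENK and NXPH2), although SST, NXPH2 and PNOC were not called against the equal-weight mean (0.38 ± 0.20, 0.06 ± 0.15 and -0.49 ± 0.27). CCK was at 45.2 and 41.3 CPM against 277 and 327 CPM and PNOC at 22.3 and 30.3 CPM against 87.3 and 88.2 CPM.

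Adhesion and axon guidance genes were the longest list, with 9 of 43 higher and 23 lower, against 13 and 15 with the equal-weight mean of the other subclasses. SLIT2, a secreted repellent, was at 1422 and 1414 CPM against 148 and 113 CPM (3.48 ± 0.13, adjusted p = 1.55e-06), and its family member SLIT3 at 13.6 and 18.1 CPM against 139 and 149 CPM (-3.15 ± 0.16). The teneurin TENM1 was at 368 and 404 CPM against 79.3 and 70.4 CPM (2.41 ± 0.11), and CNTN4 and IL1RAPL1 were higher by 1.32 ± 0.12 and 1.22 ± 0.14. CNTNAP4 was at 2206 and 2053 CPM against 1806 and 1719.7 CPM. Cadherins were mostly low, with CDH4 at 101 and 121 CPM against 637 and 699 CPM, CDH9 at 98.3 and 171 CPM against 781 and 680.2 CPM, CDH10 at 60.00 and 69.4 CPM against 342 and 296 CPM and CDH13 at 193 and 217 CPM against 1414 and 1055 CPM. NRXN3 was at 6728 and 5996 CPM against 14346 and 11183 CPM, and the netrin receptor DCC at 21.8 and 33.1 CPM against 275 and 244 CPM (-3.20 ± 0.19). Markers of chandelier cells gave 2 higher (UNC5B and C1QL1) and 1 lower (CPNE5) of 5 tested, against 2 and 2 with the block and 1 and 1 of 4 after thinning. C1QL1 had 102 UMIs in Pvalb and 2 in the other nuclei, a ratio of 41.2 (95% exact interval 11.1 to 345). Markers used for basket cell types gave 2 higher (ITM2A and CALB1) and 4 lower (RELN, SEMA3E, GABRG1 and GPR149) of 7. No activity-regulated gene of 8 tested was called by edgeR against the pooled group, nor of 15 by DESeq2, and 1 had an unadjusted p under 0.05 in each. With the block, FOSL2 and HOMER1 were called higher, and 2 of 3 tested genes were higher against the equal-weight mean, FOSL2 among them (0.91 ± 0.29, adjusted p = 0.030).

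**Figure D3:**
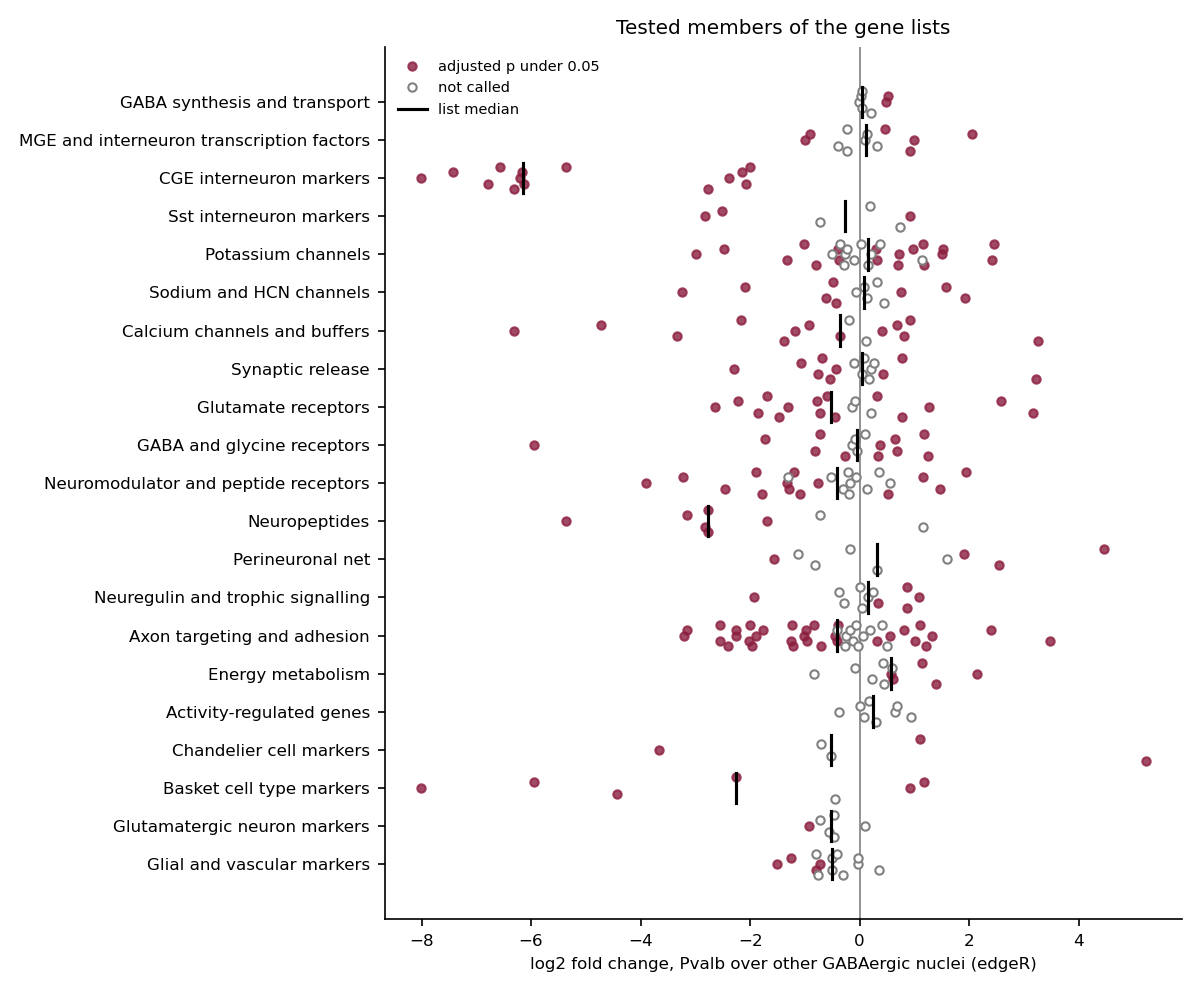
Log2 fold change of every tested member of 21 gene lists, Pvalb over other GABAergic nuclei, filled where the adjusted p was under 0.05, with a bar at the list median. The markers of the caudal ganglionic eminence had a median of -6.15 and the energy list one of 0.58, against -0.01 over all genes.

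Sst nuclei are the other subclass of MGE origin, so a separate comparison asked what parts Pvalb from Sst nuclei, in a fit over the 10 sums of the 5 subclasses. Of 11100 genes tested, 2700 differed (24.3%), 1330 higher and 1370 lower in Pvalb nuclei. GABRB2 was at 306 and 325 CPM in Sst nuclei, a log2 fold change of 1.89 ± 0.11 (adjusted p = 2.32e-08). KCNAB1 was at 123 and 111 CPM there (3.21 ± 0.19), and PLAT differed by 5.39 ± 0.30. The genes NXPH2 (1332 and 1151 CPM), CACNA2D3 (3009.5 and 3204 CPM), GRIK3 (1765 and 1695 CPM), CDH13 (2147 and 1758 CPM) and SST (350.3 and 291 CPM) were all far higher in Sst nuclei. LHX6 and SATB1 were lower in Pvalb than in Sst nuclei, by 0.81 ± 0.14 and 1.33 ± 0.14 on the log2 scale. SOX6 did not differ beyond the spread (-0.12 ± 0.17, adjusted p = 0.705). KCNT2, which was low against the pooled group, was higher in Pvalb than in Sst nuclei by 1.16 ± 0.13.

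The same fit gave 3152 genes (28.4%) against Vip, 3053 (27.5%) against Lamp5 and 3010 (27.1%) against Frem1 nuclei. The 4 counts rest on sums of unequal depth and were not compared. Pvalb was higher than each of the 4 subclasses in 437 genes (3.94%) and lower than each in 287 (2.59%). Potassium channels gave 7 of 27 genes higher than each and 1 lower, and sodium and HCN channels 3 of 13 higher and 2 lower. Glutamate receptors gave 3 of 18 higher and 5 lower.

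The deposited annotation splits Pvalb nuclei into 6 types, Pvalb_1 to Pvalb_6. The types are clusters of the same counts, so their levels are described and not tested. Pvalb_1 held 27.7% of the Pvalb nuclei of animal 1 and 18.3% of animal 2, Pvalb_2 held 14.3% and 33.5%, and Pvalb_3 held 22.4% and 13.0%. The shares of Pvalb_4 (16.8% and 16.5%), Pvalb_5 (9.51% and 10.0%) and Pvalb_6 (9.33% and 8.70%) were close in the 2 animals. Between the libraries of an animal, none of 12 Fisher's exact tests gave a p under 0.05 (smallest adjusted p = 1), so no difference between the libraries of an animal was detectable. The exact 95% intervals of Pvalb_2 were 12.3% to 16.4% in animal 1 and 30.5% to 36.5% in animal 2, and they cover counting error only.

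Pvalb_2 was shallow. Its nuclei had a median of 2310 and 4924 UMIs, against 8660 and 10580 in Pvalb_1, and it held 28 of the 55 nuclei marked as doublets. Among nuclei with at least 3000 UMIs its share was 5.91% and 28.5%. Its leading genes were SRSF1 (322 and 352 CPM), SKIC2, GYS1 and GOLGB1 (544 and 595 CPM), at 2.28 to 3.56 times the level in the other Pvalb nuclei, and none belongs to the marker lists. The part of depth in this type was not tested. Leaving Pvalb_2 out, which was chosen after seeing the data, gave 3507 called genes against the other GABAergic nuclei and 2820 against Sst nuclei.

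**Figure D4:**
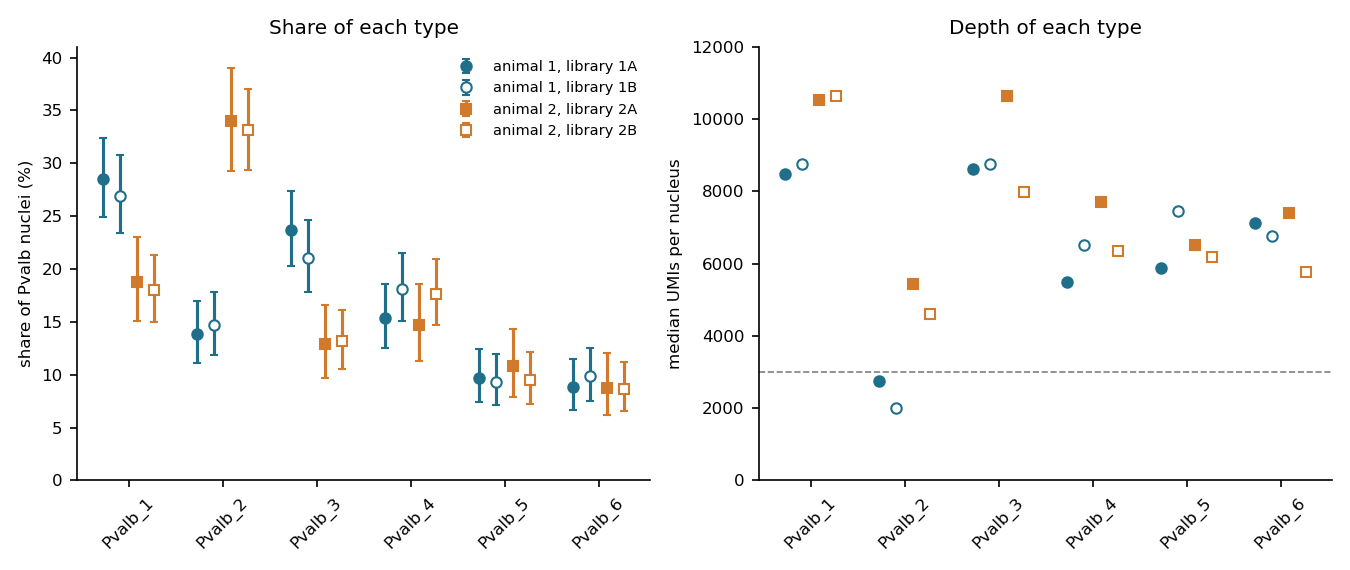
Share of Pvalb nuclei in each type by library, with exact 95% binomial intervals (left), and median UMIs per nucleus (right, dashed line at 3000 UMIs). Pvalb_2 took 13.8% to 14.7% of nuclei in the libraries of animal 1 and 33.1% to 34.0% in those of animal 2, and had the lowest median depth in every library.

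For levels, each nucleus was thinned to 3000 UMIs, which left 60 to 319 nuclei per type and animal. A gene was counted when its type differed by at least 2-fold from the other Pvalb nuclei in both animals, with at least 20 CPM in the higher group. Pvalb_5 had 671 such genes of 6267 (10.7%), Pvalb_6 had 293 (4.67%), Pvalb_4 had 281 (4.45%), Pvalb_2 had 269 (4.25%), Pvalb_1 had 114 (1.84%) and Pvalb_3 had 99 (1.6%). Higher in the type were 22 of these in Pvalb_1 (0.355% of genes), 72 in Pvalb_2 (1.14%), 28 in Pvalb_3 (0.451%), 146 in Pvalb_4 (2.31%), 265 in Pvalb_5 (4.23%) and 144 in Pvalb_6 (2.3%). The count for Pvalb_2 moved to 124 with thinning to 1500 UMIs and to 34 with thinning to 5000 UMIs, that for Pvalb_1 to 12 at 5000 UMIs and 13 with no thinning, and that for Pvalb_3 to 50 at 1500 UMIs. Over 3583 genes, the deviations of a type from the mean of the types had Pearson correlations across genes of 0.614 to 0.848 between the animals. The labels were given to both animals together, so such a match is built in.

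Pvalb_5 stood apart most. Its leading genes were CEMIP, a hyaluronan-degrading protein, at 876 and 937 CPM against 12.7 and 8.95 CPM in the other Pvalb nuclei, LYPD6 at 230.5 and 171 CPM, the T-type calcium channel CACNA1H at 202 and 155 CPM and the mechanosensitive channel PIEZO2 at 1667 and 2052 CPM against 42.0 and 61.0 CPM. The potassium channel KCNT2 was at 1049.7 and 1056 CPM here and at 40.3 to 155 CPM in the other types. The netrin receptor UNC5C was at 1071 and 901 CPM and UNC5B at 67.4 and 59.5 CPM, against at most 13.2 CPM for UNC5B elsewhere. SCUBE3 was also highest here, at 14.2 and 15.9 CPM, which is 4 UMIs in each animal. UNC5B and SCUBE3 are known from chandelier cells of mice, but VIPR2, another such marker, was at 0 and 11.9 CPM and highest in Pvalb_4 (16.8 and 36.8 CPM). Of the other chandelier markers, CPNE5 was at 10.6 and 31.7 CPM in Pvalb_5 and 13.04 and 21.6 CPM in Pvalb_4, and C1QL1 at 10.6 and 11.9 CPM and 16.8 and 0 CPM. Their highest type differed between the animals, and the type is called by its label. SATB1 was at 14.2 and 11.9 CPM and GRIK3 at 14.2 and 3.97 CPM, and both were at least 136 CPM in each other type. TENM2 (628 and 460.3 CPM) and MYO5B (167 and 119 CPM) were also lowest here. PNOC had no UMI in Pvalb_5 of either animal, which allows up to 10.6 and 11.9 CPM.

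Pvalb_4 was led by MOXD1, CALB1, SST and HMCN1. CALB1 was at 279 and 236 CPM against 7.09 to 25.6 CPM in the other types, SST at 132 and 90.9 CPM against at most 32.3 CPM, and MOXD1 at 130.4 and 88.7 CPM. The matrix gene HMCN1 was at 87.5 and 69.3 CPM. HAPLN4 was at 3.72 and 4.33 CPM, which is 2 UMIs in each animal, against 10.6 to 88.9 CPM in the other types. BCAN (5.59 and 4.33 CPM), KCNC1 (402 and 416 CPM) and SYT2 (81.9 and 67.1 CPM) were lowest here in both animals. PTPRZ1, a receptor phosphatase of the net list, was highest here (136 and 115 CPM), and the proteoglycan CSPG5 was at 50.3 and 56.3 CPM. In Sst nuclei thinned the same way, SST was at 403 and 359 CPM, CALB1 at 59.7 and 30.7 CPM, MOXD1 at 1146 and 965 CPM and HAPLN4 at 1.51 and 2.88 CPM. RELN was at 3.72 and 12.99 CPM in Pvalb_4 and at 1493 and 1383 CPM in Sst nuclei, and ERBB4 at 15272 and 16219 CPM and 1912 and 1626 CPM. STXBP6 was at 907 and 883 CPM in Pvalb_4 and at 1143 and 1347 CPM in Sst nuclei, and KCND2 at 3534 and 3771 CPM and 4609 and 4650.3 CPM. Against the other types and Sst nuclei, Pvalb_4 was thus near the other types for ERBB4 and RELN, nearest to Sst nuclei of the 6 types for HAPLN4, STXBP6, KCND2, SST and MOXD1, and above both for CALB1.

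Pvalb_6 was led by ATP8B4, a lipid flippase (213 and 132 CPM), the cation channel TRPC6 (169.8 and 189 CPM), the receptor phosphatase PTPRK (1324 and 1167 CPM) and GULP1 (509 and 500.0 CPM). SATB1 (562 and 500.0 CPM) and the repellent SEMA3A (355 and 417 CPM) were highest here. CHRM2 was at 55.6 and 21.9 CPM and CDH9 at 318 and 522 CPM, while CDH7 was at 9.26 and 0 CPM, against at least 48.4 CPM in the other types. HAPLN4 was at 18.5 and 26.3 CPM and TNR at 451 and 412 CPM. In Pvalb_3 these genes were at 74.5 and 34.9 CPM and 460.1 and 441 CPM.

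Pvalb_1 was led by ESR1, the estrogen receptor (163 and 227 CPM), PCSK6, SVIL and SYNDIG1, at 2.30 to 2.96 times the other Pvalb nuclei. It had the highest KCNC1 (1091 and 1088 CPM), TENM2 (3862 and 4221 CPM) and MYO5B (1144 and 1123 CPM). Pvalb_3 was led by HPCAL1, CDH12, ST8SIA2 and UTRN, at 2.38 to 3.12 times the others, and it had the highest SLIT2 (2034 and 2298 CPM) and TNR (460.1 and 441 CPM).

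**Figure D5:**
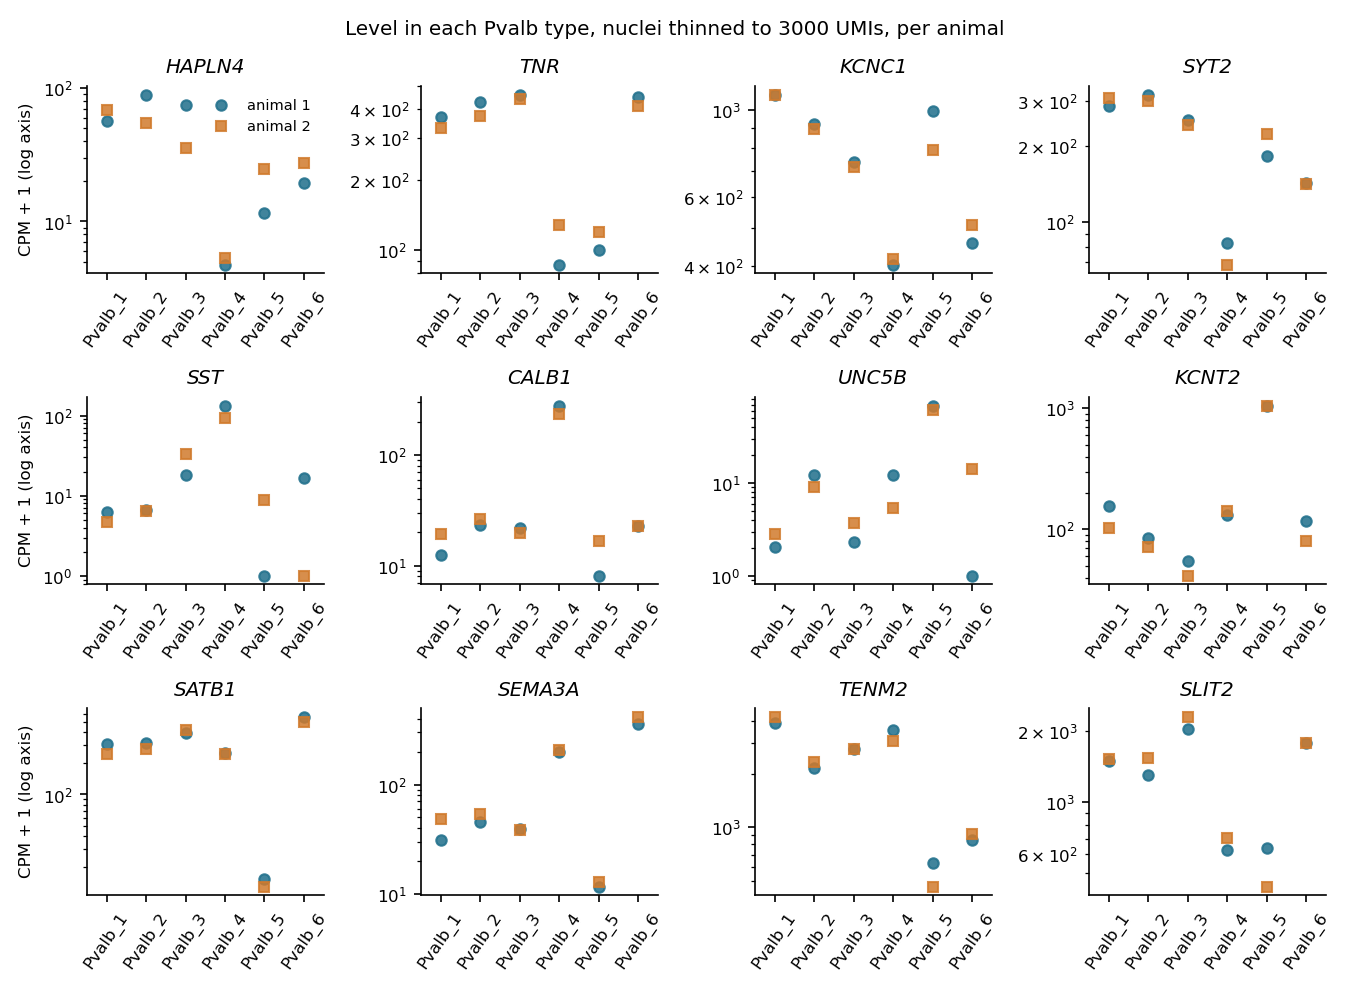
Level of 12 genes in each Pvalb type after thinning to 3000 UMIs, in CPM plus 1 on a log axis, with circles for animal 1 and squares for animal 2. HAPLN4 was at 3.72 and 4.33 CPM in Pvalb_4, KCNT2 at 1050 and 1056 CPM in Pvalb_5, and SATB1 at 14.2 and 11.9 CPM in Pvalb_5.

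The lists were also read across the types, without a test. Of all 7819 genes with at least 20 CPM in a type, 1805 (23.1%) had the same highest type in both animals at 2-fold or more over the lowest type. The types were clustered from these counts, so nothing is read from a list's share beside that one. Of 41 adhesion genes with at least 20 CPM in a type, 25 met this rule, 8 of them in Pvalb_5, 7 in Pvalb_6 and 6 in Pvalb_4. The potassium channels KCNAB1 (1515 and 1092 CPM) and KCNC1 were highest in Pvalb_1, whereas KCND2 (3534 and 3771 CPM) and KCNQ5 (80.1 and 56.3 CPM) were highest in Pvalb_4. KCNH7 and KCNT1 were highest in Pvalb_5, at 2801 and 2282 CPM and 947 and 1222 CPM, and KCNT1 was lowest in Pvalb_6, at 389 and 373 CPM. Kainate receptor genes were spread over the types, with GRIK1 highest in Pvalb_1 (115 and 109 CPM) and lowest in Pvalb_4 (26.1 and 25.97 CPM), GRIK3 highest in Pvalb_4 (939 and 725 CPM) and GRIK4 highest in Pvalb_5 (521 and 694 CPM). The AMPA subunits GRIA3 and GRIA4 were highest in Pvalb_5 (1443 and 1575 CPM and 2089 and 1893 CPM) and lowest in Pvalb_6 (247 and 320.2 CPM and 781 and 518 CPM). Among opioid receptor genes, OPRD1 was at 199 and 163 CPM in Pvalb_5 and at 61.7 and 43.9 CPM in Pvalb_6, and OPRM1 (48.4 and 28.1 CPM) and OPRK1 (46.6 and 43.3 CPM) were highest in Pvalb_4. PPARGC1A and ESRRG were highest in Pvalb_1, at 438 and 516 CPM and 163 and 142 CPM. The teneurins TENM1 and TENM4 were highest in Pvalb_5, at 773 and 762 CPM and 475 and 519.8 CPM, and TENM3 in Pvalb_4, at 236 and 264 CPM. The rule was met by 11 of 18 glutamate receptors and 15 of 26 potassium channels, and by 1 of 10 sodium and HCN channels (SCN4B).

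The Pvalb nuclei of the 2 animals were set beside each other without a test. Of 6493 genes with at least 20 CPM, 37 (0.57%) differed by 2-fold or more with no overlap between the libraries, 33 higher in animal 1 and 4 in animal 2. The libraries of the animals did not overlap in 57.8% of these 6493 genes, whatever the fold. With each nucleus thinned to 3000 UMIs the numbers were 48 and 13. LRRC36 was at 16.4 and 24.0 CPM in the libraries of animal 1 and at 1.21 and 0.458 CPM in those of animal 2, 11.9-fold. It was 6.69-fold higher in animal 1 in the other GABAergic nuclei too. ACADL, an enzyme of fatty acid oxidation, was 2.98-fold higher in animal 1 in Pvalb nuclei and 3.22-fold in the others, and DPEP1 2.96-fold and 3.06-fold. SIN3A was 2.22-fold higher in animal 1, in the same direction in all 6 types, and 1.70-fold higher in the other GABAergic nuclei. SVEP1 was 2.12-fold higher in animal 1 in the Pvalb nuclei together and 1.13-fold in the others, but it was level in Pvalb_4 and 13.0-fold higher in animal 2 in Pvalb_5. CHST9, a sulfotransferase, was 3.18-fold higher in animal 2, with 9.32 and 11.4 CPM in the libraries of animal 1 against 29.9 and 38.9 CPM, and in the other GABAergic nuclei it was at 80.3 and 82.4 CPM. TAFA4 and USP11 were 2.87-fold and 2.12-fold higher in animal 2, and 1.64-fold and 2.19-fold in the other GABAergic nuclei. In Pvalb_3 CHST9 went the other way, at 0.803 times the level of animal 1, as did TAFA4 in Pvalb_6, at 0.621 times. The shares of the types differed between the animals, and their part in these folds was not tested.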

How the data were processed

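Nuclei of V1 of 2 opossums were sequenced by 10x 3' chemistry, 2 libraries per animal, after sorting of Draq5+ nuclei. The authors aligned reads, introns included, to an Ensembl annotation of the opossum genome whose 3' ends they extended by 5 kb, with Cell Ranger (6.1.1 per the processing notes, 7.1.0 per the file headers), and deposited UMI counts per gene and barcode together with Scrublet doublet scores, a fraction from 0 to 1, and subclass and type labels from their clustering. They had removed clusters judged ambiguous. No per-sample column was left unused (0). UMIs were summed per animal and group and tested with edgeR 4.0.16 in R 4.3.3 (TMM factors, low-count filter, quasi-likelihood test, Benjamini-Hochberg adjustment over all genes tested, threshold 0.05). The first fit held 4 sums (Pvalb and other GABAergic nuclei), the second 10 sums (5 subclasses), with log2 fold changes ± SE. Levels are given per animal, so n = 2. Both groups came from the same animals, but neither main fit pairs the sums. Block values are given where they change a named gene's call or move the count over all genes by over 1.5 times. They are also given for some lists. With the block, sodium and HCN channels gave 4 higher and 5 lower, calcium genes 5 and 9, and glutamate receptors 6 and 10. Modulator receptors gave 4 and 12, and adhesion genes 11 and 27. GABA synthesis gave 3 and 0, and basket cell markers 2 and 5. Tested on simulated data, with 100 genes changed 2-fold and 100 changed 4-fold, the first fit recovered 72% and 100%. It made 12 false calls among 15439 genes. The second fit recovered 86% and 100%, with 9 false calls among 10476 genes. All sums were simulated with the same dispersion and no shared deviation of an animal, and changed genes were drawn above a minimum count. The simulation therefore says little about recovery at low counts or about false calls in the real data. Predicted labels, from the 15 nearest nuclei of the other animal over the other part of the genes, recovered 99.1% to 99.7% of Pvalb nuclei. For types, each nucleus was thinned to 3000 UMIs with seed 7, shallower nuclei were left out, and 1 CPM was added before folds. Genes named were the 12 largest changes in each direction with a symbol and at least 20 CPM in both animals, members of 21 lists, the 4 leading genes of each type with at least 50 CPM, and up to 5 genes for each animal. The members and lists were chosen with earlier results of these data known. Alternatives were DESeq2 1.42.0 and its size factors, no filter, the block, doublets removed, equal nuclei, thinning to 1500, 3000 and 5000 UMIs, predicted labels, the equal-weight mean of the 4 other subclasses (of log2 levels) and each library left out. Leaving out Pvalb_2, the 100 CPM minimum and the shares at 3000 UMIs or without doublets were added after seeing the data. Intervals are exact (Clopper-Pearson, or conditional binomial for ratios). Sequences were not used here. A few list members are not reported here, and the counts of their lists include them.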

Additional observations from a re-analysis of the deposited data

How the results depend on the processing

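The count of genes that differed between Pvalb and other GABAergic nuclei was 3361. It stayed within 1.5 times of that under 13 alternatives, at 2407 with nuclei thinned to 3000 UMIs to 4318 with no low-count filter, and DESeq2 called 2453. It was 5850 with the replicate block by animal, whose sums deviated together in both groups (correlation 0.454 across 15540 genes). That block changed no call of the 14 genes reported against Sst nuclei, where the count of 2700 ranged from 1844 when thinned to 3913 with the block. Without 1 library the first count was 2901 to 3109. With 1 animal left out no test can be made, and all 3361 genes kept their direction in either animal, as did 2700 against Sst nuclei. Of 150 genes reported, 32 results lost and 18 gained their call over all alternatives, with the same direction. Against the equal-weight mean of the 4 subclasses, the signs turned for GRIK3 (1.19), KCND2 (0.13), NXPH2 (0.06), OXTR (1.28), SATB1 (2.25), SLC32A1 (0.087), SST (0.38) and STXBP6 (2.99). That mean is one of log2 levels and not of CPM, and the cause was not tested. The other turned signs belong to genes near 0 that were never called in those settings. SLC32A1 was at 0.0027 with RLE factors, 0.014 with DESeq2, 0.0097 with equal nuclei, 0.024 with predicted labels, 0.0093 without library 1A, 0.015 without library 2B and 0.098 without Pvalb_2. MBP was at 0.12 without doublets, 0.049 without library 1A, 0.063 without library 2A, and 0.21 in animal 2 and -0.32 in animal 1 alone. NTRK2 was at -0.0022 without doublets, -0.012 without library 1A, -0.0071 without library 2A, and -0.075 in animal 1 and 0.010 in animal 2 alone. GAD2 was at -0.014 without library 1A, and -0.058 in animal 1 and 0.047 in animal 2 alone. KCNA2 was at -0.0060 without library 2B, and -0.12 in animal 1 and 0.39 in animal 2 alone. COX4I1 was at 0.059 without library 2B, and SYT1 at -0.0039 in animal 2 and 0.0084 in animal 1 alone.

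For the types, other thinning depths, no thinning and removal of doublets left the 6 counts of genes in either direction within 1.5 times. The folds of 12 of 24 leading genes with thinning to 5000 UMIs and of 9 of 24 with thinning to 1500 UMIs moved by more than the spread between animals, with the same direction. A minimum of 100 CPM in the higher group was added after seeing the data. The 6 counts were then 35, 39, 39, 101, 311 and 121 for Pvalb_1 to Pvalb_6. Fewer genes were eligible, but the share of eligible genes that was counted moved too. This share fell from 4.25% to 1.91% for Pvalb_2 and from 1.84% to 1.75% for Pvalb_1. For Pvalb_3 to Pvalb_6 it rose from 1.6%, 4.45%, 10.7% and 4.67% to 1.99%, 5.0%, 15.3% and 6.03%. In a single animal the 6 counts were 277 to 413, 497 to 1356, 250 to 473, 639 to 720, 1298 to 1351 and 721 to 948. Among nuclei with at least 3000 UMIs the shares moved to 31.4% and 20.9% for Pvalb_1, 5.91% and 28.5% for Pvalb_2 and 25.1% in animal 1 for Pvalb_3. Between animals, thinning gave 61 genes in place of 37. Depth limits the type levels, where 1 UMI was worth 1.04 to 5.56 CPM after thinning.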
